A study of Mus musculus with 4 samples.

Results

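The genes described here encode 8 transcription factors of the myeloid lineage: Cebpa, Cebpb, Cebpd and Cebpe of the C/EBP family, Spi1 (PU.1), Irf8, Gfi1 and Klf4. They were taken by name from the 24016 gene symbols in the count tables, and for each the most counted transcript, summed over the 4 libraries, was used. RNA was sequenced from hematopoietic stem cells (HSCs) sorted from bone marrow of C57BL/6 mice aged 4 months, with 2 libraries from NHD13 mice and 2 from wild-type (WT) mice. The sort selected lineage-negative marrow cells bearing Sca-1, c-Kit and CD150 on their surface and lacking CD34 as well as Flt3. NHD13 mice carry a transgene for the human fusion of NUP98 with HOXD13, found in myelodysplastic syndrome and leukemia. It is under Vav1 regulatory sequences that are active across blood cells, so that stem cells and their mature progeny can both express it. WT mice lack the transgene. Whether libraries of the same genotype derive from different animals is not stated, so SDs and p-values measure the spread between these samples, which may be technical.

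C/EBP proteins are basic leucine zipper factors that bind DNA as dimers, and PU.1 is an ETS factor. Together they open and activate the genes of granulocytes and monocytes, with C/EBPα needed for the step to granulocyte and monocyte progenitors and C/EBPε for the secondary granules of neutrophils. Irf8 favours monocytes and dendritic cells, partly as a partner of PU.1, while the zinc finger repressor Gfi1 favours neutrophils. Klf4 is a zinc finger factor that promotes monocyte differentiation. In stem cells these genes are mostly held at low levels, and their balance sets lineage choice.

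Expression is given as CPM, which are counts scaled to a common library size with TMM factors, and a gene is called when its adjusted p was below 0.05 by edgeR's quasi-likelihood test with Benjamini-Hochberg adjustment over all 14853 genes tested. The libraries held 35025974 to 48423689 counts with 1 transcript per gene. The mouse gene Hoxd13 was at 1.89 and 1.59 CPM in NHD13 libraries 1 and 2, against 0.322 and 0.0821 CPM in WT libraries 1 and 2, which was in the direction of the labels, although how the human transgene's reads align to it was not measured. Of the genes behind the sort, Kit had 991 and 1122 CPM in NHD13 and 1130 and 1271 CPM in WT, and Slamf1 (CD150) 143 and 117 CPM in NHD13 and 119 and 134 CPM in WT. The Sca-1 gene Ly6a was lower in both NHD13 libraries, at 131 and 77.7 CPM against 273 and 200 CPM in WT. It was not called (edgeR adjusted p 0.0921). RNA of both genes whose protein the sort excludes was present: Flt3 had 59.0 and 4.33 CPM in NHD13 and 10.4 and 15.4 CPM in WT, and Cd34 had 51.6 and 21.4 CPM in NHD13 and 120 and 138 CPM in WT. Summed levels of 9 stem cell marker genes were 2160 and 2632 CPM in NHD13 and 3550 and 3687 CPM in WT. NHD13 library 1 stood apart in genes of mature neutrophils: 8 markers summed to 2714 CPM there, against 357 CPM in NHD13 library 2 and 314 and 261 CPM in WT, with all 8 highest in NHD13 library 1 and none at 0 in any library. NHD13 library 2 stood apart in T cell genes, with 6 markers at 167 CPM against 21.0 CPM in NHD13 library 1 and 20.0 and 20.6 CPM in WT. The WT libraries stood apart from each other in 3 eosinophil markers, which summed to 134 and 216 CPM in NHD13 and 3.40 and 361 CPM in WT, and in the stromal gene Sparc, at 0.407 and 2.08 CPM in NHD13 and 35.6 and 0.602 CPM in WT. Summed markers of some other cells were higher in both NHD13 libraries, in part through few genes. Of all genes tested, 30.1 percent lay higher in both NHD13 libraries and 30.3 percent lay lower. Of 6 B cell markers (89.7 and 96.9 CPM in NHD13, 73.6 and 80.8 CPM in WT), 3 lay higher, 0 lay lower and 3 overlapped. Of 4 plasmacytoid dendritic cell markers (257 and 215 CPM in NHD13, 198 and 213 CPM in WT), 2 lay higher, 1 lay lower and 1 overlapped. Of 10 macrophage markers (97.3 and 99.6 CPM in NHD13, 63.0 and 53.3 CPM in WT), 3 lay higher in both NHD13 libraries, 2 lay lower and 5 overlapped. Of 4 NK cell markers (183 and 161 CPM in NHD13, 58.7 and 63.1 CPM in WT), 2 lay higher, 1 lay lower and 1 overlapped, and Nkg7 alone had 153 and 82.2 CPM in NHD13 and 18.9 and 18.0 CPM in WT. Of 6 mast cell and basophil markers (139 and 118 CPM in NHD13, 26.1 and 8.02 CPM in WT), Ms4a2 gave most of the sum in NHD13 library 1 (111 CPM, against 4.45 CPM in NHD13 library 2) and Cpa3 in NHD13 library 2 (107 CPM, against 21.3 CPM in NHD13 library 1). Fcer1a, a defining gene of these cells, was called lower, with 0 and 0.020 CPM in NHD13 and 0.920 and 1.70 CPM in WT (edgeR adjusted p 0.0444), and the other 3 overlapped. In a library 0 or 1 macrophage marker, 0 NK cell markers and 1 or 2 mast cell and basophil markers were at 0. In bulk samples such as these, fewer cells of a type and less RNA per cell cannot be told apart.

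All 8 factor genes passed the filter on low counts, and none was called, whereas 4.28 percent of all genes tested were called in either direction. The direction was mixed. Klf4 averaged 103 CPM in NHD13 and 210 CPM in WT, Cebpe and Spi1 were higher in both NHD13 libraries than in either WT library, and the libraries of Cebpd and Irf8 overlapped. At an unadjusted p under 0.05 there were 3 of the 8, namely Klf4, Cebpe and Spi1, beside 26.8 percent of all genes tested. In 4 genes both NHD13 libraries lay above both WT libraries, beside 30.1 percent of all genes, and in 2 both lay below, beside 30.3 percent. The median log2 fold change of the 8 was 0.60, against 0.00 for all genes tested. DESeq2, which called 17.5 percent of all genes, called Cebpe higher and Klf4 lower, and limma-voom, which called 4.17 percent, called none of the 8.

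**Figure D1:**
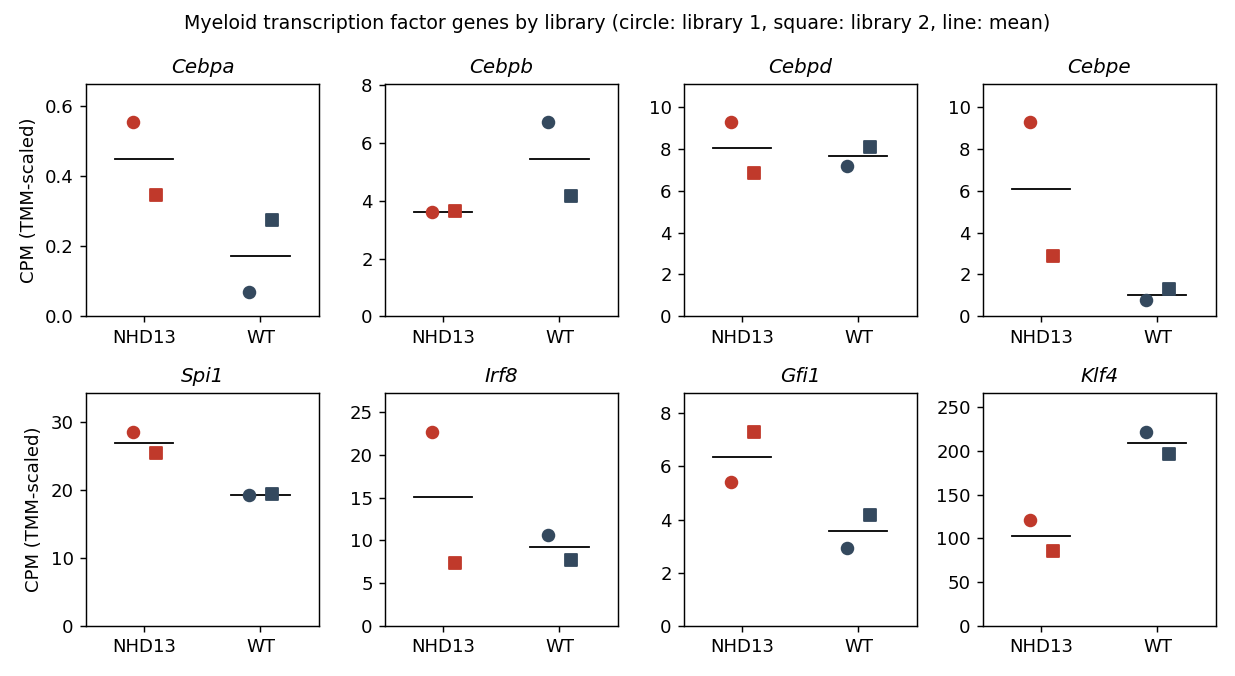
CPM of each of the 8 factor genes in each library, with NHD13 (red) left of WT (blue); circles are library 1, squares are library 2 and lines are group means (n = 2). Klf4 lies between 85.2 and 121 CPM in NHD13 and between 197 and 222 CPM in WT, and Cebpe and Irf8 are high in NHD13 library 1.

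Cebpa encodes C/EBPα, the factor that opens the granulocyte programme. It was close to absent from all libraries: 19 and 17 counts in NHD13 libraries 1 and 2, and 3 and 10 counts in WT libraries 1 and 2, which equals 0.553 and 0.347 CPM in NHD13 and 0.0690 and 0.274 CPM in WT. Both NHD13 libraries lay above both WT libraries, but the WT libraries differed from each other by more than NHD13 library 2 did from WT library 2. The log2 fold change was 1.39 ± 0.88 (SE), with a 95% interval of -0.87 to 3.66 and an adjusted p of 0.369 by edgeR. At this depth a difference could not be shown. All 5 Cebpa transcripts in the tables carried identical counts.

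Cebpb encodes C/EBPβ, which takes over from C/EBPα in emergency granulopoiesis and acts in macrophages. It had 3.61 and 3.63 CPM in NHD13, against 6.71 and 4.16 CPM in WT. The NHD13 libraries were nearly equal and lay below both WT libraries, of which library 1 was the higher. With a log2 fold change of -0.59 ± 0.34 and a 95% interval of -1.47 to 0.30, Cebpb was not called (edgeR adjusted p 0.337). Without WT library 1 the estimate was -0.21.

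Cebpd encodes C/EBPδ, an acute-phase factor of the family. It had 9.28 and 6.88 CPM in NHD13 and 7.22 and 8.13 CPM in WT, so the groups overlapped. The log2 fold change of 0.07 ± 0.25 had a 95% interval of -0.58 to 0.72 (edgeR adjusted p 0.882), and its sign turned without NHD13 library 1 (-0.15) or WT library 1 (-0.015).

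Cebpe encodes C/EBPε, which drives the late, granule-forming steps of neutrophils. It had 319 and 141 counts in NHD13, against 33 and 47 counts in WT, or 9.28 and 2.88 CPM in NHD13 against 0.759 and 1.29 CPM in WT. Both NHD13 libraries lay above both WT libraries, and NHD13 library 1 was 3.23 times NHD13 library 2. With 6.08 ± 4.53 CPM in NHD13 and 1.02 ± 0.373 CPM in WT (SD, n = 2 each), the log2 fold change was 2.57 ± 0.69, with a 95% interval of 0.79 to 4.35. This was the highest of the 8 genes and was not called (edgeR adjusted p 0.103). DESeq2 called it (adjusted p 0.00446), as did edgeR without NHD13 library 2 (3.19, adjusted p 0.0476), a fit that called 6.35 percent of its genes. Without NHD13 library 1, the library with the high neutrophil markers, the log2 fold change was 1.50 (edgeR adjusted p 0.312). The 8 neutrophil markers were at 2714 and 357 CPM in NHD13 and 314 and 261 CPM in WT, and their part in the Cebpe difference was not tested.

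Spi1 encodes PU.1, which is needed for both myeloid and lymphoid cells and acts by dose. Its libraries lay close together within each group, with 28.5 and 25.3 CPM in NHD13 and 19.2 and 19.3 CPM in WT. The groups did not overlap, and NHD13 averaged 26.9 ± 2.22 CPM against 19.2 ± 0.0686 CPM in WT (SD, n = 2 each). The fold of 1.40 equals a log2 fold change of 0.48 ± 0.14, with a 95% interval of 0.13 to 0.84. It was not called by edgeR (adjusted p 0.113) or DESeq2 (adjusted p 0.0672). With any 1 library left out the log2 fold change stayed between 0.41 and 0.57, and without NHD13 library 1 it was 0.41. Some markers of macrophages, NK cells and mast cells, such as Cd68 (35.5 and 31.8 CPM in NHD13, 10.48 and 10.6 CPM in WT), were also higher in both NHD13 libraries, while others were not. Of 10 macrophage markers 3 lay higher, 2 lay lower and 5 overlapped. For 4 NK cell markers these numbers were 2, 1 and 1, and for 6 mast cell and basophil markers 2, 1 and 3. Of all genes tested, 30.1 percent lay higher in both NHD13 libraries and 30.3 percent lay lower. The part of these markers in the Spi1 difference was not tested.

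Irf8 encodes the interferon regulatory factor that directs monocytes and dendritic cells. It stood at 22.7 CPM in NHD13 library 1 and 7.35 CPM in NHD13 library 2, against 10.6 and 7.72 CPM in WT. One NHD13 library was thus above both WT libraries and the other was below both. The log2 fold change of 0.71 ± 0.56 had a 95% interval of -0.73 to 2.15 and was not called (edgeR adjusted p 0.468), and without NHD13 library 1 it was -0.31. NHD13 library 1 was 3.09 times NHD13 library 2 for Irf8 and 3.23 times for Cebpe, and it was also the library with the high neutrophil markers, whose part was not tested.

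**Figure D2:**
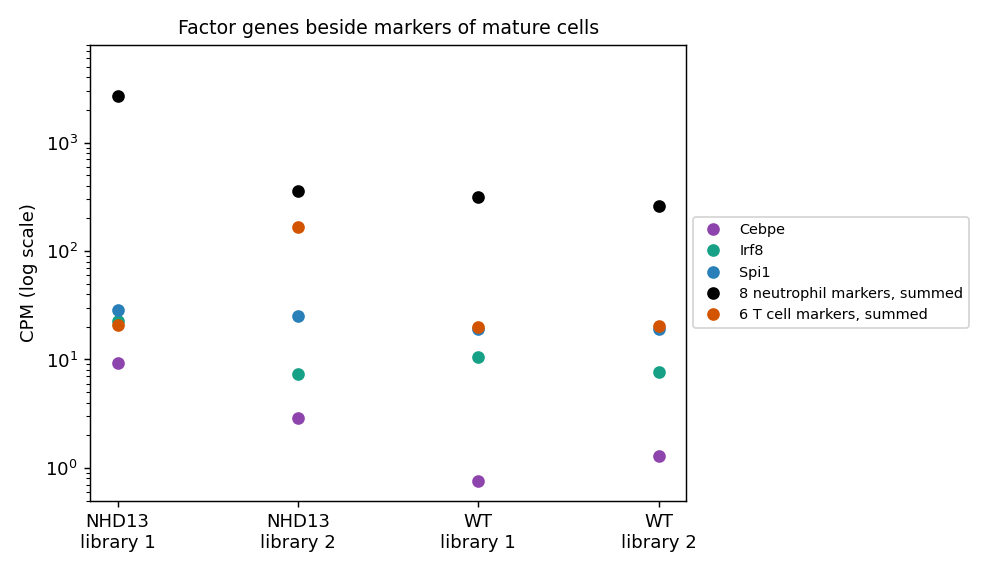
CPM on a log scale in each library for Cebpe, Irf8 and Spi1, and the summed CPM of 8 neutrophil and 6 T cell marker genes; each point is 1 library, NHD13 left of WT. The neutrophil sum of 2714 CPM in NHD13 library 1 stands above the 261 to 357 CPM of the other libraries, and Cebpe and Irf8 are at their highest in that library while Spi1 differs little between the NHD13 libraries.

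Gfi1 encodes a repressor that keeps stem cells quiescent and opposes the monocyte programme. It had 5.41 and 7.31 CPM in NHD13 and 2.92 and 4.19 CPM in WT. Here NHD13 library 2 was the higher of the NHD13 libraries, the opposite of Cebpe and Irf8, and both lay above both WT libraries. The log2 fold change was 0.84 ± 0.33, with a 95% interval of -0.02 to 1.70, and it was not called (edgeR adjusted p 0.194). It ranged from 0.60 to 1.12 with 1 library left out. The 2 Gfi1 transcripts in the tables had nearly the same counts: the one used had 186 and 358 in NHD13 and 127 and 153 in WT, and the other 185 and 354 in NHD13 and 129 and 153 in WT.

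Klf4 encodes the Krüppel-like factor of monocyte differentiation. It had 121 and 85.2 CPM in NHD13, against 222 and 197 CPM in WT. The groups lay well apart, at 103 ± 25.3 CPM in NHD13 and 210 ± 17.6 CPM in WT (SD, n = 2 each). The log2 fold change was -1.02 ± 0.19, with a 95% interval of -1.52 to -0.53, which is a WT level 2.03 times that of NHD13. Klf4 narrowly missed the threshold in the edgeR test (adjusted p 0.0579). It passed by DESeq2 (adjusted p 1.8e-05), by edgeR without a filter on low counts (0.0337), with a stricter filter that asks for 1 CPM in both NHD13 or both WT libraries (0.0433) and without NHD13 library 1 (-1.29, adjusted p 0.0474). Those fits called 17.5, 5.47, 8.24 and 1.69 percent of all genes they tested. The sign was negative in all 13 alternative fits, among which the adjusted p reached 0.274 (without WT library 1). The summed level of 9 stem cell markers was also lower in both NHD13 libraries (2160 and 2632 CPM in NHD13, 3550 and 3687 CPM in WT). Within each group Klf4 was higher in library 1 and the sum was higher in library 2. Of the 9, 5 lay lower in both NHD13 libraries, beside 30.3 percent of all genes, and 4 (Procr, Mecom, Slamf1 and Fgd5) overlapped. Their part in the Klf4 difference was not tested.

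**Figure D3:**
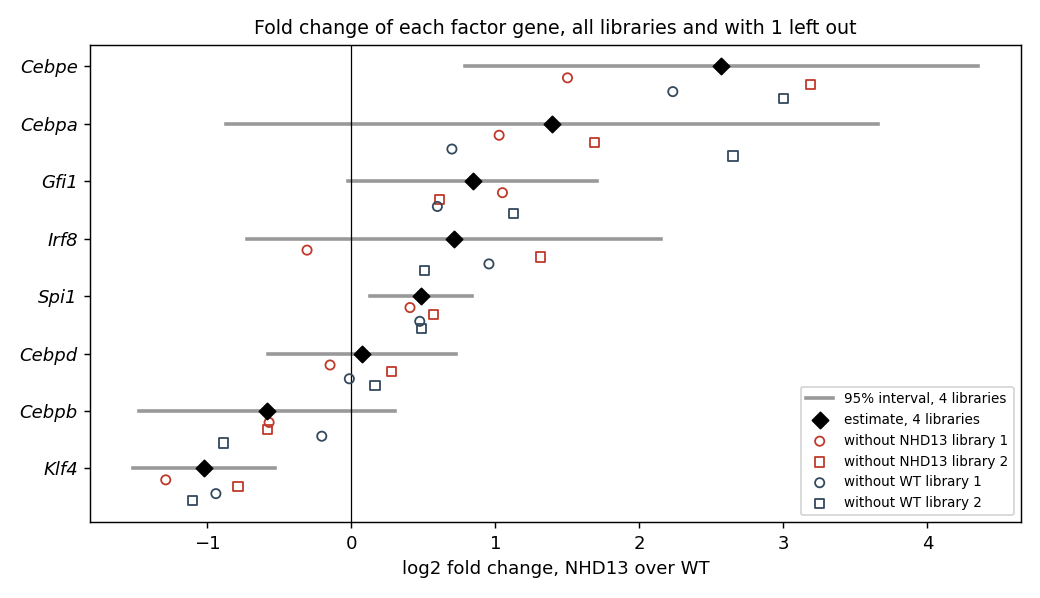
Log2 fold change of each factor gene, NHD13 over WT: diamonds are the estimates from 4 libraries, grey bars their 95% intervals, and open symbols the estimates with 1 library left out. Cebpa, Cebpb, Cebpe, Spi1, Gfi1 and Klf4 keep to one side of 0 in every fit shown, while Irf8 is at -0.31 and Cebpd at -0.15 without NHD13 library 1.

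Promoter sequences of RefSeq (build GRCm38.p6, a later build than the mm9 of the counts) were held for 5 of the 8 genes: Cebpa, Cebpb, Gfi1, Irf8 and Klf4. The 250 bases before the start were searched on both strands for short forms of the factors' own motifs: TTGCNNAA for C/EBP, GAGGAA for PU.1, AAATCA for Gfi1, GGGNGTGG for Klf and, for IRF, GAAA repeated after a gap of 2 bases. Among all 32851 such windows 9.56 percent held the C/EBP form, 23.3 percent the PU.1 form, 12.4 percent the Gfi1 form, 15.9 percent the Klf form and 2.98 percent the IRF form. None was found before Cebpa or Klf4, and Cebpb held the Klf form on the opposite strand at bases -95 to -88. The windows of Gfi1 and Irf8 are printed because they hold the C/EBP and Gfi1 letters, forms of factors that act with or against these genes in myeloid cells, and that of Klf4 because this gene had the smallest p. Capitals mark matches to the C/EBP and Klf forms before Gfi1, which overlap no other match, and to the Gfi1 form before Irf8, on the opposite strand. A match is only a match of letters. The first of 2 Gfi1 starts lies after chr5:107725806-107726055 on the minus strand, the first of 2 Irf8 starts after chr8:120736108-120736357 on the plus strand, and the Klf4 start after chr4:55532476-55532725 on the minus strand.
Gfi1: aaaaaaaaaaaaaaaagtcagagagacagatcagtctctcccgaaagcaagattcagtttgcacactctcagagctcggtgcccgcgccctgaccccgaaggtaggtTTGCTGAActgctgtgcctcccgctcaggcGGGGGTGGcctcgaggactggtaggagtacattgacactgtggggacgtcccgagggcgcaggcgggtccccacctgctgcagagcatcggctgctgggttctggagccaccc
Irf8: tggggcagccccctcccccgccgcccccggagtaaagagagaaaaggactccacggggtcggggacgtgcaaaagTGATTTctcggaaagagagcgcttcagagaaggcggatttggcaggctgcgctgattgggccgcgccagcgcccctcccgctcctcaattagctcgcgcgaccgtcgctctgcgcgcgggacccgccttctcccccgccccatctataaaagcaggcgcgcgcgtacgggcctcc
Klf4: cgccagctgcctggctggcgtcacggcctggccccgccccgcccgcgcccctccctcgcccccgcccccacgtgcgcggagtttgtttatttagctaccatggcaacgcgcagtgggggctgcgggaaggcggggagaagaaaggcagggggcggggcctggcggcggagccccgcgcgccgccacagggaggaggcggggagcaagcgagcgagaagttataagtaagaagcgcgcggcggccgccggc
The C/EBP form before Gfi1 covers bases -143 to -136 and the Klf form bases -113 to -106, counted back from the start. The Gfi1 form before Irf8 covers bases -175 to -170.

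To compare the genes with each other, CPM were divided by the length of the matched GENCODE M21 transcript, giving CPM per kilobase. Klf4 was the highest in both groups, at 34.0 ± 8.35 in NHD13 and 69.2 ± 5.81 in WT (SD, n = 2 each), followed by Spi1 at 13.2 ± 1.09 in NHD13 and 9.46 ± 0.0337 in WT. Cebpa was the lowest, at 0.171 ± 0.0555 in NHD13 and 0.0652 ± 0.0551 in WT. In NHD13 the middle order was Irf8 (5.28 ± 3.81), Cebpe (4.90 ± 3.65), Gfi1 (2.41 ± 0.507), Cebpb (2.41 ± 0.0112) and Cebpd (2.16 ± 0.454) CPM per kilobase, none of which stood apart from its neighbour beyond the SDs. In WT it was Cebpb (3.61 ± 1.20), Irf8 (3.22 ± 0.716), Cebpd (2.05 ± 0.172), Gfi1 (1.35 ± 0.340) and Cebpe (0.824 ± 0.301), where Cebpb and Irf8, and Gfi1 and Cebpe, did not differ beyond their SDs. Cebpe was thus within the SDs of Irf8 and Gfi1 in NHD13 and the second lowest in WT. The GENCODE transcript of Cebpd is 3746 bases long and its RefSeq span 2260 bases. With the span, Cebpd came to 3.58 ± 0.753 in NHD13 and 3.40 ± 0.284 in WT, between Cebpb and Irf8 in WT.

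Genes with the most similar pattern were sought among the 9517 genes whose mean log2 CPM reached 3, by the distance over the 4 libraries between log2 CPM centred on each gene's mean, with a prior count of 2. For Klf4 these were C1ra, Tfpi and Igf2bp2 at distances of 0.064, 0.074 and 0.097, and for Spi1 they were Fam120a, Srrm2 and Dync1h1 at 0.020 to 0.028. Rgs10, Cfp and P2ry1 were the nearest to Cebpe at 0.42 to 0.50, and Mmp14, Chn2 and Hacl1 to Irf8 at 0.20 to 0.32. The nearest to Gfi1 were Isg15, Fars2 and Cerkl (0.27 to 0.28), to Cebpb Cisd3, Carhsp1 and S1pr1 (0.050 to 0.14), to Cebpd Oxsr1, Fam109b and Specc1 (0.022 to 0.028), and to Cebpa Xist, Tsix and Hspa1b (0.29 to 0.40). With 4 libraries these are descriptions of likeness only.

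The relatives of the 8 factors were examined next. All calls in these lists rested on both WT libraries: without WT library 1 or without WT library 2 edgeR called 0 of the 15171 and 15948 genes then tested, with 2332 and 2605 at an unadjusted p under 0.05. Among the other IRF genes reported here, Irf4 was called higher and Irf2 was called lower, beside 2.07 and 2.22 percent of all genes. Irf4, the lymphoid relative closest to Irf8 and another partner of PU.1, rose to 7.83 and 6.90 CPM in NHD13, against 1.43 and 0.985 CPM in WT (log2 fold change 2.60 ± 0.34, edgeR adjusted p 0.0334). Irf2, a repressor of interferon responses, fell to 128 and 114 CPM in NHD13, against 180 and 192 CPM in WT (-0.62 ± 0.10, edgeR adjusted p 0.0488). In both the gap between the groups exceeded that between the libraries within them, whereas those of Irf8 overlapped. On all 4 libraries edgeR did not call Irf2 with DESeq2 size factors (adjusted p 0.0518) or on summed transcripts (0.0663). Irf4 and Irf2 were no longer called without NHD13 library 1 (adjusted p 0.102 and 0.0954) or NHD13 library 2 (0.0507 and 0.0805), and without a WT library their adjusted p lay between 0.19 and 0.239.

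Of 13 other ETS genes tested, edgeR called 1, lower, beside 2.22 percent of all genes called lower. DESeq2 called 1 higher and 3 lower, beside 8.2 and 9.33 percent of all genes. The limma-voom fit called 0 higher and 1 lower, beside 1.8 and 2.37 percent. The 1 called by edgeR was Fli1, a factor of stem cells and megakaryocytes, at 243 and 235 CPM in NHD13 and 388 and 442 CPM in WT (log2 fold change -0.80 ± 0.10, edgeR adjusted p 0.0319). It was not called without NHD13 library 1 (adjusted p 0.0953), NHD13 library 2 (0.0594), WT library 1 (0.174) or WT library 2 (0.185), with log2 fold changes of -0.89 to -0.70. The family member Spi1 had the opposite sign. None of 3 other C/EBP genes was called by edgeR, DESeq2 or limma-voom. At an unadjusted p under 0.05 there were 0, beside 26.8 percent of all genes. Cebpg had 33.4 and 31.9 CPM in NHD13 and 25.4 and 29.7 CPM in WT, and the stress factor Ddit3 had 46.0 and 31.2 CPM in NHD13 and 29.6 and 50.9 CPM in WT. The other Gfi and Klf genes gave no edgeR call among 13. Of these, 6 passed an unadjusted p under 0.05, beside 26.8 percent of all genes. Calls were 0 by limma-voom and 4 by DESeq2, beside 4.17 and 17.5 percent of all genes. The median log2 fold change of these 13 genes was -0.43. Klf12 had 3.49 and 6.08 CPM in NHD13 and 11.98 and 14.0 CPM in WT and passed in the unfiltered edgeR fit (0.0396). The erythroid factor Klf1 had 13.8 and 11.1 CPM in NHD13 and 6.28 and 7.03 CPM in WT.

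Among 28 tested genes that act above, with or against these factors, 1 was called higher and 4 were called lower by edgeR, beside 2.07 and 2.22 percent of all genes. DESeq2, with 17.5 percent of all genes called, called 5 higher and 7 lower, and limma-voom, with 4.17 percent, 1 higher and 5 lower. Trib2, a pseudokinase that sends C/EBPα protein to degradation, rose to 77.5 and 82.1 CPM in NHD13, against 29.9 and 23.1 CPM in WT (log2 fold change 1.59 ± 0.16, edgeR adjusted p 0.0193). Both NHD13 libraries carried it alike, and without NHD13 library 1 it was 1.64 (adjusted p 0.0592). The inhibitors of basic helix-loop-helix factors Id2 (-1.19 ± 0.14) and Id1 (-1.40 ± 0.18) fell, as did Egr1 (-0.81 ± 0.10), a factor of monocyte fate and stem cell quiescence, and Junb (-0.65 ± 0.11), an AP-1 subunit that limits myeloid growth. Their edgeR adjusted p lay between 0.0297 and 0.04997. On all 4 libraries edgeR did not call Junb with scaling to library totals only (adjusted p 0.0622) or on summed transcripts (0.0629). Without NHD13 library 1 Id2, Id1 and Junb were not called (adjusted p 0.0808, 0.0634 and 0.121), and without NHD13 library 2 Id1 was not (0.054), while without either WT library none of the 5 was (0.117 to 0.261). Of 7 Gfi1 corepressor genes none was called by edgeR, while 2 passed an unadjusted p under 0.05, beside 26.8 percent of all genes. Calls among them were 0 by limma-voom and 1 by DESeq2, beside 4.17 and 17.5 percent of all genes. Rcor2 had 1.60 and 2.27 CPM in NHD13 and 6.37 and 5.39 CPM in WT and was called with the 1 CPM filter (adjusted p 0.0493), and the histone methyltransferase gene Ehmt2 had 50.1 and 49.0 CPM in NHD13 and 40.1 and 33.0 CPM in WT.

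Genes that C/EBP factors and PU.1 are known to activate include those of the early neutrophil granules. In this list 5 of 10 were called, all higher, beside 2.07 percent of all genes called higher, and the list median was 2.39. DESeq2 called 6 of the list, limma-voom 3, edgeR without a filter 3 and edgeR on summed transcripts 2, all higher. Of all genes these fits called 8.2, 1.8, 2.56 and 1.26 percent higher. Mpo, the myeloperoxidase, rose to 709 and 587 CPM in NHD13, against 49.0 and 39.2 CPM in WT (log2 fold change 3.88 ± 0.17, edgeR adjusted p 0.00470). Ms4a3, a marker of granulocyte and monocyte progenitors, rose to 51.8 and 33.5 CPM in NHD13, against 4.16 and 4.84 CPM in WT (3.24 ± 0.27). Elane (3.30 ± 0.52), Ctsg (2.93 ± 0.42) and the protease inhibitor gene Serpinb1a (2.02 ± 0.29) also rose. Elane was not called without a filter (adjusted p 0.178), on summed transcripts (0.0613) or by limma-voom (0.0608). Ctsg was not called by limma-voom (0.0652) or on summed transcripts (0.0538), and Serpinb1a without a filter (0.0631) or on summed transcripts (0.0542). Without NHD13 library 1 the list median was 1.44, and Ctsg (2.37) and Elane (2.49) were no longer called. Without NHD13 library 2 the median was 2.87, and without a WT library the 5 were not called. The summed list was at 2884 and 1510 CPM in NHD13 and 946 and 956 CPM in WT, and the part of the neutrophil markers, highest in NHD13 library 1, was not tested. Prtn3, a neighbouring protease gene named after its values were seen, had 229 and 165 CPM in NHD13 and 270 and 273 CPM in WT.

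**Figure D4:**
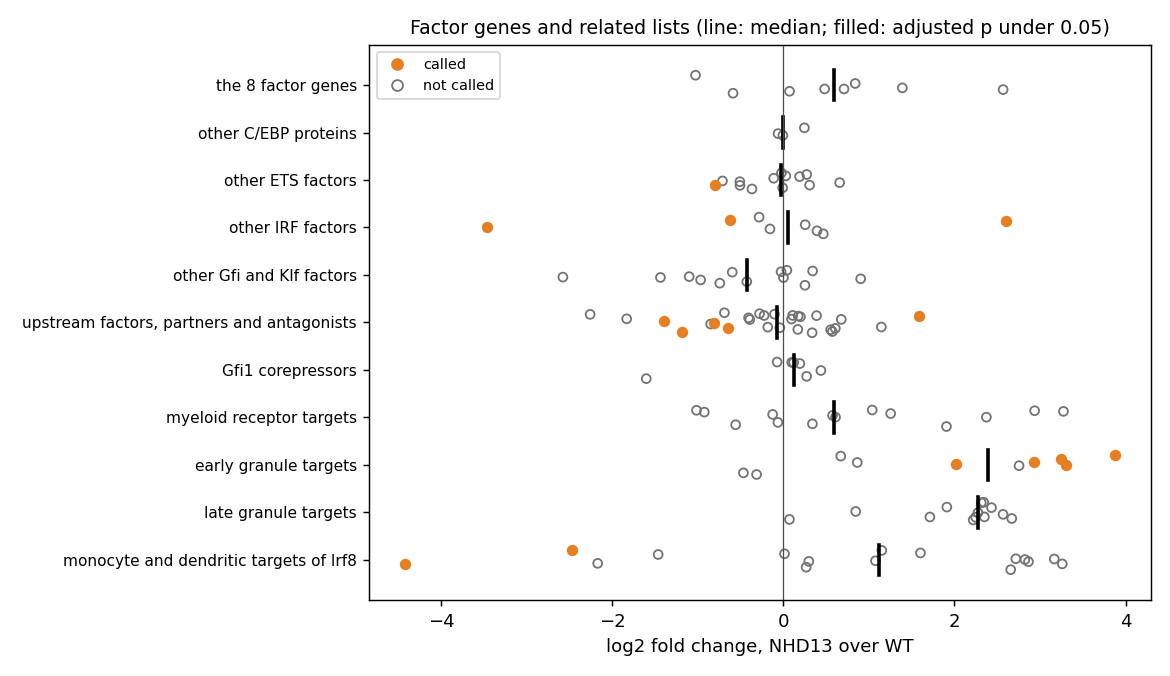
Log2 fold change, NHD13 over WT, of each tested gene in the 8 factor genes and 10 related lists; filled points were called at an adjusted p under 0.05, open points were not, and lines are list medians. None of the 8 factor genes is filled, whereas 5 early granule targets are, and the late granule targets lie to the right of 0 without a call.

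The 250 bases before the start of 5 early granule genes are shown because 4 of these genes were called together while Prtn3 was not, and because PU.1 and C/EBP act on them. RefSeq sequences were held for 8 of the 10 genes in the list. Capitals mark the PU.1 form GAGGAA, and the C/EBP form was found in none of the 5. The windows are chr11:87793534-87793783 on the plus strand for Mpo, chr10:79886062-79886311 on the plus strand for Elane, chr14:56102575-56102824 on the minus strand for Ctsg, chr19:11640852-11641101 on the minus strand for Ms4a3 and chr10:79879417-79879666 on the plus strand for Prtn3.
Mpo: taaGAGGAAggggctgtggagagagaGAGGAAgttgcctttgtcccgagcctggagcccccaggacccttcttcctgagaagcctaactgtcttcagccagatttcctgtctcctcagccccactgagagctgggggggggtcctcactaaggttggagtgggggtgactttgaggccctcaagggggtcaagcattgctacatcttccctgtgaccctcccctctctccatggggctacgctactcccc
Elane: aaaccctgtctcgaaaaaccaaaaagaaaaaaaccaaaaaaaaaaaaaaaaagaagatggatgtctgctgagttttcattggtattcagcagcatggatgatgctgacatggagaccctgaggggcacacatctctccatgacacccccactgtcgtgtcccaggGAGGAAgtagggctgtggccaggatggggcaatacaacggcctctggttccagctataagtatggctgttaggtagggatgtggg
Ctsg: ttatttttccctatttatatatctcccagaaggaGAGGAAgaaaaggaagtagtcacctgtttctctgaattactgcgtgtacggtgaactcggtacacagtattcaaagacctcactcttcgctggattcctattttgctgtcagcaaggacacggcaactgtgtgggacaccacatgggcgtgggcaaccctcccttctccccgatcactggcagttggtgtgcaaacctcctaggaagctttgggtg
Ms4a3: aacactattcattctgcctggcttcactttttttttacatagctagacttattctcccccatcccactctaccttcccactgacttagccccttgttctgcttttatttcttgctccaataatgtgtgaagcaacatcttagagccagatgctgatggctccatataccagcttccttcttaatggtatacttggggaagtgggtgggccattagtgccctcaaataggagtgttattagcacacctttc
Prtn3: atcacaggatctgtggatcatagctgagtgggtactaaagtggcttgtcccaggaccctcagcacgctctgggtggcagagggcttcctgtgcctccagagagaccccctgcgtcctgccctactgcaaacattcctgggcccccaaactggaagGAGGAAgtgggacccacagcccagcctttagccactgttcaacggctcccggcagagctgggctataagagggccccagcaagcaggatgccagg
Mpo held 2 matches, at bases -247 to -242 and -224 to -219. Elane held 1 at -85 to -80, Ctsg 1 at -216 to -211 and Prtn3 1 at -95 to -90, and Ms4a3 held none. Of the other 3 windows held, Ctsc had 2 matches and Lyz1 and Lyz2 had none, and Lyz1 held the C/EBP form at bases -209 to -202. In all, 5 of the 8 windows held the PU.1 letters, as did 23.3 percent of all windows, and nothing about binding follows from this.

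The late granule genes, which C/EBPε activates, gave no edgeR call among 13. Of these, 3 passed an unadjusted p under 0.05, beside 26.8 percent of all genes. Calls were 0 by limma-voom and 3 by DESeq2, beside 4.17 and 17.5 percent of all genes. All 13 log2 fold changes were above 0 with a median of 2.28, and 12 of the genes were highest in NHD13 library 1. Without that library the median was 0.21, and without NHD13 library 2 it was 3.10. Cebpe was highest in NHD13 library 1. The list includes all 8 neutrophil markers, so its library pattern largely repeats theirs and is no separate observation. Their part was not tested. Padi4, which citrullinates histones in neutrophils, had 131 and 194 CPM in NHD13 and 91.4 and 89.1 CPM in WT. Without NHD13 library 1 its log2 fold change was 1.11. Mmp9, a granule gelatinase, had 21.3 and 6.14 CPM in NHD13 and 2.69 and 2.68 CPM in WT.

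Myeloid receptor genes under these factors gave no edgeR call among 14 on the filtered counts. Of these, 9 passed an unadjusted p under 0.05 (26.8 percent of all genes did), limma-voom called 0, and DESeq2, with 17.5 percent of all genes called, called 4 higher and 2 lower. edgeR called 3 higher without a filter on low counts and 2 higher with the 1 CPM filter, beside 2.56 and 3.61 percent of all genes. The Fc receptor gene Fcgr3 had 22.2 and 8.31 CPM in NHD13 and 1.86 and 2.11 CPM in WT (log2 fold change 2.94 ± 0.53, edgeR adjusted p 0.0553). Cd33 had 5.33 and 2.92 CPM in NHD13 and 0.276 and 0.575 CPM in WT (3.27 ± 0.60, edgeR adjusted p 0.0555). Fcgr3 passed without a filter (0.0434) and with the 1 CPM filter (0.0409), as did Cd33 (0.0230 and 0.0345). The log2 fold change of Fcgr3 was 3.49 without NHD13 library 2 and 2.07 without NHD13 library 1. The summed list was at 372 CPM in NHD13 library 1, 226 CPM in NHD13 library 2 and 257 and 251 CPM in WT.

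Of 16 monocyte and dendritic genes tied to Irf8, 2 were called, both lower, beside 2.22 percent of all genes called lower, and the list median was 1.11. DESeq2 called 5 higher and 3 lower, beside 8.2 and 9.33 percent of all genes. The limma-voom fit called 0 higher and 2 lower, beside 1.8 and 2.37 percent. Clec9a, a receptor of dendritic cells, fell to 0.175 and 0.469 CPM in NHD13, against 6.14 and 8.10 CPM in WT (log2 fold change -4.42 ± 0.57, edgeR adjusted p 0.0325). Ciita, the MHC class II transactivator, fell to 1.14 and 1.80 CPM in NHD13, against 8.53 and 7.72 CPM in WT (-2.46 ± 0.35, edgeR adjusted p 0.0381). Irf8 itself was at 7.35 to 22.7 CPM in NHD13 and 7.72 to 10.6 CPM in WT. The list as a whole summed to 936 CPM in NHD13 library 1, against 424 CPM in NHD13 library 2 and 396 and 362 CPM in WT. Without NHD13 library 1 neither Clec9a (-3.91, adjusted p 0.0532) nor Ciita (-2.17, adjusted p 0.0757) was called, and without a WT library their adjusted p lay between 0.185 and 0.228. Without NHD13 library 2 the log2 fold change was -5.32 for Clec9a and -2.83 for Ciita. The list median was 1.54 without NHD13 library 2 and 0.53 without NHD13 library 1.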

How the data were processed

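cDNA from 10 ng RNA was made with the SMARTer Ultra Low kit for paired-end sequencing, per the labels' protocols, and aligned with Bowtie 0.12.2 to mm9, per the submitters' processing notes. The authors deposited raw counts per RefSeq transcript, 33018 per library; how reads were counted and whether strand was used was not given in the sources used here, and overlapping genes can share reads.

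Per symbol the transcript with the highest total was kept. Counts were filtered, TMM-scaled and tested with edgeR 4.0.16 (R 4.3.3; robust quasi-likelihood, NHD13 against WT, all 4 libraries), with alternatives by DESeq2 1.42.0, limma-voom (limma 3.58.1), other scalings and filters, summed transcripts, a replicate block and each library left out. The standard error is the log2 fold change divided by the square root of F, and 95% intervals use the test's degrees of freedom. The fit was tested on simulated data. Libraries of a group differed by more than counting noise (mean chi-square per gene 61.6 in NHD13 and 33.8 in WT). The members and lists were chosen with earlier results of these data known. Genes named from a list were its called members, at most 5, or the 2 with the smallest adjusted p where none was called. Chi3l3 was listed and not found in the tables. One listed gene is not reported here.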

Additional observations from a re-analysis of the deposited data

How the results depend on the processing

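edgeR called 636 genes on all 4 libraries and none of the 8 factor genes. The count of all genes was 1138 without a filter, 1066 with the stricter 1 CPM filter, 2604 by DESeq2, 402 with summed transcripts and 0 to 990 with 1 library left out. The count of factor genes was 1 without a filter and 1 with the 1 CPM filter (Klf4 in each), 2 by DESeq2 and 0 to 1 with 1 library left out (Klf4 without NHD13 library 1, Cebpe without NHD13 library 2). Under the 1 CPM filter Cebpa was not tested. With 1 library left out, signs turned for Cebpd (range -0.15 to 0.28), Irf8 (-0.31 to 1.31) and Ddit3 (-0.40 to 0.38); the causes were not tested. Such fits take their spread from the group that still has 2 libraries.

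The libraries share numbers but nothing states that these pair them, and same-numbered libraries deviated in opposite directions (correlation over genes -0.206). With the replicate number as a block edgeR called 107 genes and 0 of the 8, none of the 28 upstream genes, and 2 higher and 0 lower of the 16 genes tied to Irf8. With crossed numbers, an alternative chosen after seeing the data, it called 647 genes and 0 of the 8. Low counts limit Cebpa above all.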
